A study of Mus musculus with 8 samples.

Results

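Irx5 encodes a homeodomain transcription factor of the Iroquois family, and 3461 of the 12196 cells in 3 libraries labelled Kmt2d+/βgeo had an Irx5 value above 0. These cells, called Irx5 cells here, were chosen by that value alone in the libraries of days 0, 2 and 8, out of 30408 cells in the whole series. Within each library they were compared with the cells whose Irx5 value was 0, to see whether they formed a subset of their own. In the mean over these 3 libraries, 98.6% of the genes tested differed between the classes by less than 0.2 on the log2 scale. The spread of the differences was wider within single libraries. The gene that passed the test over the 3 libraries was Olig2, a transcription factor of the oligodendrocyte lineage. It was lower in Irx5 cells on all 3 days. With the shallow day 8 library left out, 46 genes passed as higher and 79 as lower in Irx5 cells. At day 0, Irx5 cells made up 50.7% of the largest cluster of cells, against 30.8% of all clustered cells.

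All cells came from primary cultures of hippocampal neural progenitors, made from dentate gyrus that was dissected from mouse embryos of embryonic day 18 according to the labels (the study's methods name the day before). The mothers were C57BL/6J females and the fathers Kmt2d+/βgeo males, and embryos of both genotypes were littermates. The Kmt2d+/βgeo group carries the allele Mll2Gt(RRt024)Byg, a gene trap of the histone methyltransferase Kmt2d on 1 of the 2 chromosomes, and the comparison group is wild type with the strain label C57BL/6J. Cells were kept with EGF and FGF2 up to day 0 and then grown without them for 2, 4 or 8 days. There was 1 library for each genotype and day, 8 in all, and the labels do not say how many embryos or cultures each one holds. A genotype, a culture and a library therefore cannot be told apart.

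Iroquois factors belong to the TALE class of homeodomain proteins, which also holds the Meis, Pbx, Pknox and Tgif families. They are known for dividing the early neural tube and other tissues into domains, and Irx5 is known from retinal bipolar cells, the heart and the facial skeleton. Cultured hippocampal progenitors divide in the presence of EGF and FGF2, and stop dividing and begin to differentiate when these are removed. Olig2 marks oligodendrocyte precursors in the brain and is also switched on in many neural progenitors once they are grown with FGF2.

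The gene lies on chromosome 8 from 92357625 to 92376286 on the plus strand (GRCm38, ENSMUSG00000031737). The nearest annotated gene, the noncoding Crnde, lies on the minus strand from 92326033 to 92356120, with 1504 bases between them. No other annotated gene overlapped Irx5 in GENCODE M21. Irx5 was the only Iroquois gene in the matrix, and the other members of the family were not analysed here.

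The 3 libraries held 4331 cells at day 0, 4900 at day 2 and 2965 at day 8, and their median totals per cell were 23219, 16273 and 7926 UMIs (unique molecular identifiers, each marking 1 captured RNA molecule). No library of the series was shallower than that of day 8. Mean Kmt2d, as a normalised count (UMIs scaled to 8707.14 per cell), was 0.193, 0.171 and 0.290 in these libraries and 0.157, 0.197 and 0.241 in the wild-type libraries of the same days, so it did not check the labels. Reads from the 3′ end need not report a gene trap, and the sources used here do not give its position. The day 4 library labelled Kmt2d+/βgeo stood apart from the other libraries of its label. Its mean Luzp2, a gene that parted the labels on the other days, was 0.0502, against 0.0422 in the wild-type library of day 4 and between 0.287 and 2.62 in the other Kmt2d+/βgeo libraries. It was left out of the comparisons. Across the libraries, 103 cell barcodes occurred more than once, in 206 cells, of which 23 were Irx5 cells.

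Irx5 was found in 30.7% of cells at day 0 (1331 cells, 95% exact binomial interval 29.4 to 32.1). At day 2 it was found in 32.4% (1590 cells, 31.1 to 33.8), and at day 8 in 18.2% (540 cells, 16.8 to 19.6). In wild-type libraries the shares were 8.13% at day 0, 5.03% at day 2, 6.07% at day 4 and 4.64% at day 8. These shares chose the cells and are given as a description, and their intervals cover counting error only.

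The order of the days changed once every cell was thinned at random to 3000 UMIs, so that all had the same depth. Estimated UMIs, which can be fractions, were first rounded, 0.5 down, so cells at 0.5 Irx5 UMIs no longer counted. Before thinning, 21.1%, 22.1% and 10.5% of cells had at least 1 Irx5 UMI at days 0, 2 and 8. After thinning, 7.12% of cells had an Irx5 UMI at day 0 (6.37 to 7.93), 10.0% at day 2 (9.21 to 10.9) and 8.38% at day 8 (7.25 to 9.64). These intervals cover the counting of cells within 1 library, and no difference between days was tested. The thinned shares in wild-type libraries were between 0.904% and 1.297%. A total of 31 cells at day 0 and 818 at day 8 had too few UMIs and were left out. The mean normalised count of Irx5 was 0.281, 0.385 and 0.367 at days 0, 2 and 8, against 0.0565, 0.0412 and 0.0467 in wild-type cells. The lower unthinned share of day 8 thus stood beside its lower depth. No cell type that should lack Irx5 was defined, so the share that free RNA would give was not measured. The share in the wild-type libraries is the lowest at hand.

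**Figure D1:**
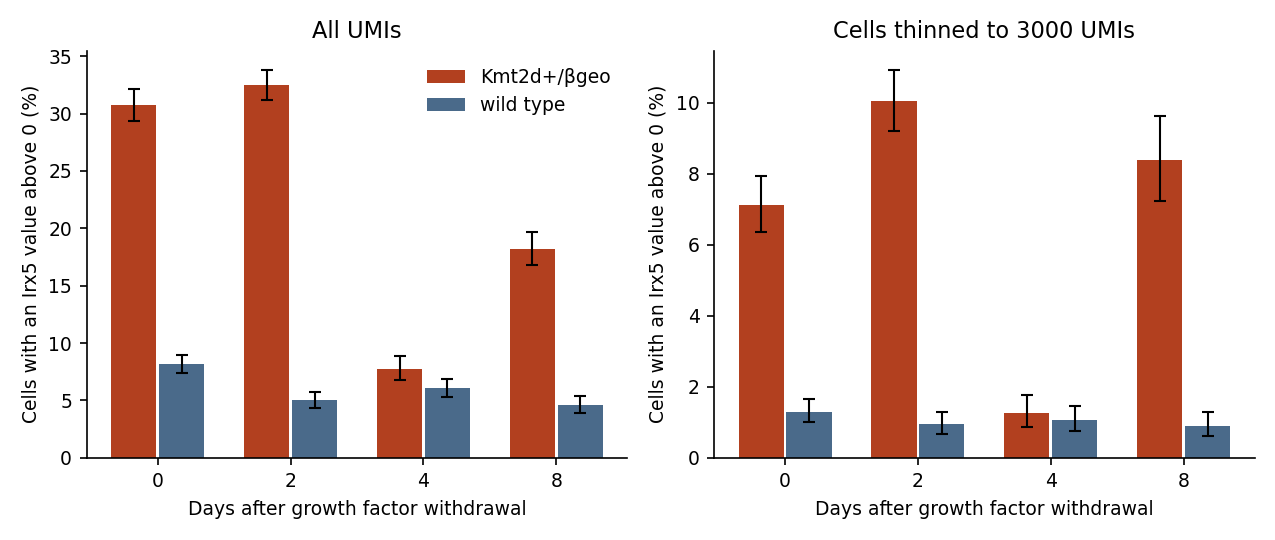
Share of cells with an Irx5 value above 0 (%) by day for Kmt2d+/βgeo (red) and wild-type (blue) libraries, with all UMIs (left) and after thinning each cell to 3000 UMIs (right). Bars are single libraries and error bars are exact 95% binomial intervals. Days 0, 2 and 8 of Kmt2d+/βgeo stand between 7.12% and 10.0% after thinning, and the other 5 libraries between 0.904% and 1.297%.

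Most Irx5 cells held very little Irx5. The smallest member values were 0.5 UMIs in all 3 libraries, which is a log2 value of 0.12, 0.21 and 0.57 by day, and the cells just outside the rule were at exactly 0. Alevin, the counting program, shares a UMI between genes when its reads cannot be placed, which can give fractions of a UMI. Of all Irx5 cells, 1151 (33.3%) stood at 0.5 UMIs. In 80 of these the value of the neighbouring gene Crnde also had a fraction of 0.5 UMIs. Where the fractions came from was not tested. With at least 1 UMI asked for, 916 cells remained at day 0, 1082 at day 2 and 312 at day 8, which is 21.1%, 22.1% and 10.5% of their libraries. At least 2 UMIs were found in 775 Irx5 cells (22.4%). The highest value was 12.25 UMIs, at day 0, against 7 at day 2 and 4 at day 8.

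The spread of the Irx5 counts between cells can be described against a Poisson draw, with no test, since these counts chose the cells. The Poisson share was taken from 1 Irx5 rate per library and the depth of each cell. At day 0 it was 29.7% of cells with at least 1 UMI, whereas 21.1% was seen, a ratio of 0.711. The ratio was 0.828 at day 2 and 0.880 at day 8. Depth differed between the cells of a library, and the median ratio over all genes was 0.954, 0.963 and 0.977 on these days. At equal depth, after thinning, the Irx5 ratios were 0.913, 0.933 and 0.904, and other genes were not looked at there. The variance of the estimated Irx5 UMIs was 2.17 times the mean at day 0, 1.48 times at day 2 and 1.29 times at day 8. Over the same background genes the median was 1.18, 1.12 and 1.08 times, and 1.95%, 8.45% and 9.60% of them stood above Irx5. After thinning, the Irx5 variance was 1.22, 1.14 and 1.18 times the mean.

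Irx5 cells were sequenced more deeply than the cells at 0. The median total was 26999 UMIs in Irx5 cells and 21751 in cells at 0 at day 0. For day 2 the medians were 17250.5 and 15814, followed by 8514.5 and 7752 for day 8. The ratio of medians was 1.24, 1.09 and 1.10. When cells were put in 10 classes of equal size by total UMIs, the Irx5 share at day 0 was 12.9% in the lowest class (9.90 to 16.4) and 58.7% in the highest (53.9 to 63.3). At day 2 it went from 19.0% to 50.2%, and at day 8 from 9.76% to 23.9%, with 26.4% in the second highest class. The mean normalised count, which is scaled for depth, was also higher in the highest class than in the lowest at day 0, at 0.446 and 0.241. At day 2 it was 0.429 and 0.290, while at day 8 it was 0.283 and 0.460. For the means, log2 differences and ratios that follow, the cells at 0 were therefore weighted to the depth classes of the Irx5 cells of their library. Shares of thinned cells are given without weights. Cells at 0 can include cells whose Irx5 was missed at their depth, and their number was not measured.

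**Figure D2:**
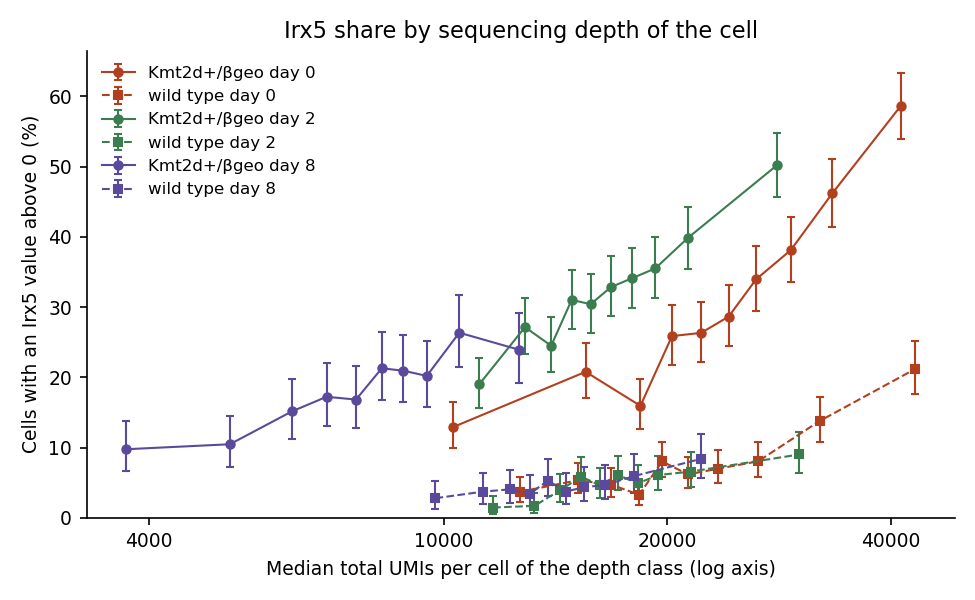
Share of cells with an Irx5 value above 0 (%) against the median total UMIs of each of 10 depth classes (log axis), for Kmt2d+/βgeo (solid lines, circles) and wild-type (dashed lines, squares) libraries of days 0, 2 and 8. Bars are exact 95% binomial intervals. The share is higher in the deepest than in the shallowest class of each Kmt2d+/βgeo library, with 58.7% in the deepest at day 0 and 50.2% at day 2.

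Irx5 cells and cells at 0 were then compared over 8011 genes with limma, with 1 mean for each class in each of the 3 libraries and the library as a block. The 3 libraries are 3 days and may share a culture. In limma the variance of a gene is drawn towards that of other genes of similar level. A p-value here therefore rests on other genes too, and not only on how a difference held over these libraries. No gene was higher in Irx5 cells by limma at an adjusted p under 0.05, and 1 gene, Olig2, was lower. This is 0% and 0.0125% of the genes tested, and 233 genes were higher and 463 lower at an unadjusted p under 0.05. The mean differences over the 3 libraries were small. Their SD over genes was 0.07 on the log2 scale, and 2432 genes had 1 sign in all 3 libraries. Within the single libraries the SD was wider, at 0.096, 0.098 and 0.135 on days 0, 2 and 8. The counts changed most without day 8, the shallowest library with the fewest Irx5 cells. Without it, 46 genes were called higher and 79 lower, whereas without day 0 they were 0 and 4, and without day 2 they were 3 and 7. Of the genes named below, 21 that the main fit did not call were called without day 8.

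Olig2 (ENSMUSG00000039830, chromosome 16, 91225457 to 91228677) had a mean normalised count of 4.30 in Irx5 cells and 5.74 in cells at 0 at day 0. By day 2 the means were 3.12 against 4.90, and by day 8 they were 0.857 against 1.47. It was thus lower in Irx5 cells in every one of these libraries. The log2 differences were -0.41, -0.64 and -0.71, with a mean of -0.59 (SE 0.050) and an adjusted p of 0.00104 in limma. Among cells thinned to 3000 UMIs, 64.6% of Irx5 cells and 75.4% of cells at 0 had an Olig2 UMI at day 0, a difference of -10.8 percentage points (95% Newcombe interval -13.8 to -7.82). At day 2 the shares were 47.0% and 60.2% (difference -13.2 points, -16.2 to -10.3), and at day 8 they were 19.2% and 25.1% (-5.88 points, -9.86 to -1.49). Most Irx5 cells of day 0 still held Olig2. Wild-type Irx5 cells showed log2 differences of -0.20, -0.23 and 0.56 on the same days.

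The Olig2 share was already lower in cells with 0.5 Irx5 UMIs. At day 0 it was 75.4% at 0 Irx5 UMIs, 65.3% at 0.5 UMIs, 68.0% at 1 and 59.7% at 2 or more. At day 2 the corresponding shares were 60.2%, 50.8%, 47.1% and 41.9%. At day 8 they were 25.1%, 19.5%, 19.2% and 18.5%, with overlapping intervals in all 4 classes. With cells at 0.5 UMIs as the only members the Olig2 difference was -0.52 (adjusted p = 0.000213 in limma), and with at least 2 UMIs it was -0.91 and the call was lost (adjusted p = 0.0588). It was also lost without the library block (adjusted p = 1.00), where the differences between days enter the error.

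**Figure D3:**
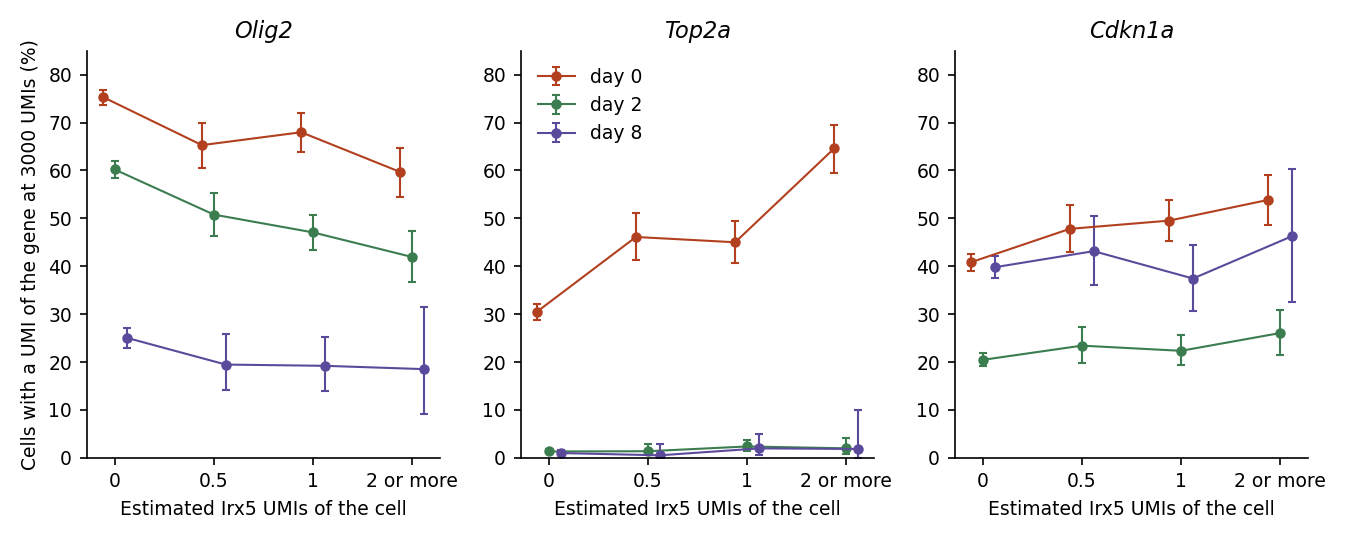
Share of cells (%) with at least 1 UMI of Olig2, Top2a and Cdkn1a after thinning to 3000 UMIs, by the estimated Irx5 UMIs of the cell before thinning (0, 0.5, 1, 2 or more), in the Kmt2d+/βgeo libraries of days 0 (red), 2 (green) and 8 (violet). Bars are exact 95% binomial intervals. Olig2 is highest in cells at 0 on each day, and Top2a at day 0 goes from 30.5% at 0 to 64.6% at 2 or more. These shares are without depth weights.

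The other 9 of the 10 lowest genes with 1 sign did not pass the test over the 3 libraries. Lhfpl3, a membrane protein gene, had log2 differences of -0.27, -0.65 and -0.54 on days 0, 2 and 8 (mean -0.48, SE 0.072, adjusted p = 0.087 in limma). At day 2, 8.49% of thinned Irx5 cells and 16.1% of cells at 0 had an Lhfpl3 UMI, a difference of -7.61 points (-9.42 to -5.70). Myt1, a zinc finger factor of oligodendrocyte precursors and neurons, had differences of -0.16, -0.41 and -0.43. Its means were low, at 0.0320 in Irx5 cells and 0.0477 in cells at 0 at day 0, and 0.0068 and 0.0438 at day 8. The thinned shares differed by -0.248 points at day 8, with an interval that included 0 (-0.739 to 0.808). Draxin, a secreted axon guidance protein, had -0.09, -0.39 and -0.45, and Tacc2, of the centrosome and spindle, had -0.24, -0.39 and -0.34. Ptprz1, a receptor phosphatase of glial precursors, had a mean difference of -0.12. Of the 4 measured genes of the oligodendrocyte list (Olig2, Ptprz1, Bcan and Cnp), 1 was called lower and none higher, and the list's median was -0.09 against -0.01 over all genes. Bcan, a brain proteoglycan, had -0.03, 0.06 and -0.20, and Cnp, an enzyme of myelin, had -0.12, 0.14 and 0.04, so 2 of the 4 genes were above 0 at day 2 and 1 at day 8.

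The remaining 5 of the 10 lowest genes were Hbegf, Slc25a25, Inka2, Xylt1 and Acap3. Hbegf, a membrane-bound ligand of the EGF receptor, rested on 1 day: its mean was 0.858 in Irx5 cells and 1.66 in cells at 0 at day 0, and 1.16 and 1.20 at day 2. Slc25a25, a mitochondrial carrier, had differences of -0.45, -0.20 and -0.34, and Inka2, an inhibitor of PAK kinases, had -0.40, -0.25 and -0.29. Xylt1, which starts the sugar chains of proteoglycans, had -0.24, -0.43 and -0.31. Acap3, a GTPase-activating protein, had -0.28, -0.39 and -0.30. The adjusted p-values of these 5 genes in limma were between 0.087 and 0.459. The FGF target Etv5 was below 0 in each library too, at -0.15, -0.18 and -0.37 (adjusted p = 0.206).

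Higher values in Irx5 cells were smaller, and none passed the test over the 3 libraries. Cdkn1a, which encodes the cell cycle inhibitor p21, had a mean of 3.47 in Irx5 cells and 2.48 in cells at 0 at day 0. For day 2 the means were 1.24 and 0.989, followed by 2.87 and 2.72 for day 8. Its log2 differences were 0.47, 0.30 and 0.07 (mean 0.28, SE 0.059, adjusted p = 0.206 in limma). After thinning, 50.1% and 40.8% of cells had a Cdkn1a UMI at day 0, a difference of 9.25 points (6.03 to 12.5), and at day 8 the difference was 1.28 points (-3.76 to 6.44). Ckap2, a spindle protein made in G2 and M phase, had differences of 0.45, 0.29 and 0.09. Itga1, an integrin that binds collagen, had 0.31, 0.20 and 0.26. Fign, a microtubule-severing protein, had 0.32, 0.09 and 0.30, and Etaa1, an activator of the replication stress kinase ATR, had 0.30, 0.27 and 0.12. Pxdn, a peroxidase of the basement membrane, had 0.03, 0.23 and 0.45. The potassium channel Kcnk2 had 0.16, 0.27 and 0.25. Pdgfrl, Anxa4 and Smpdl3a made up the 10 highest, with means of 0.25, 0.23 and 0.23.

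**Figure D4:**
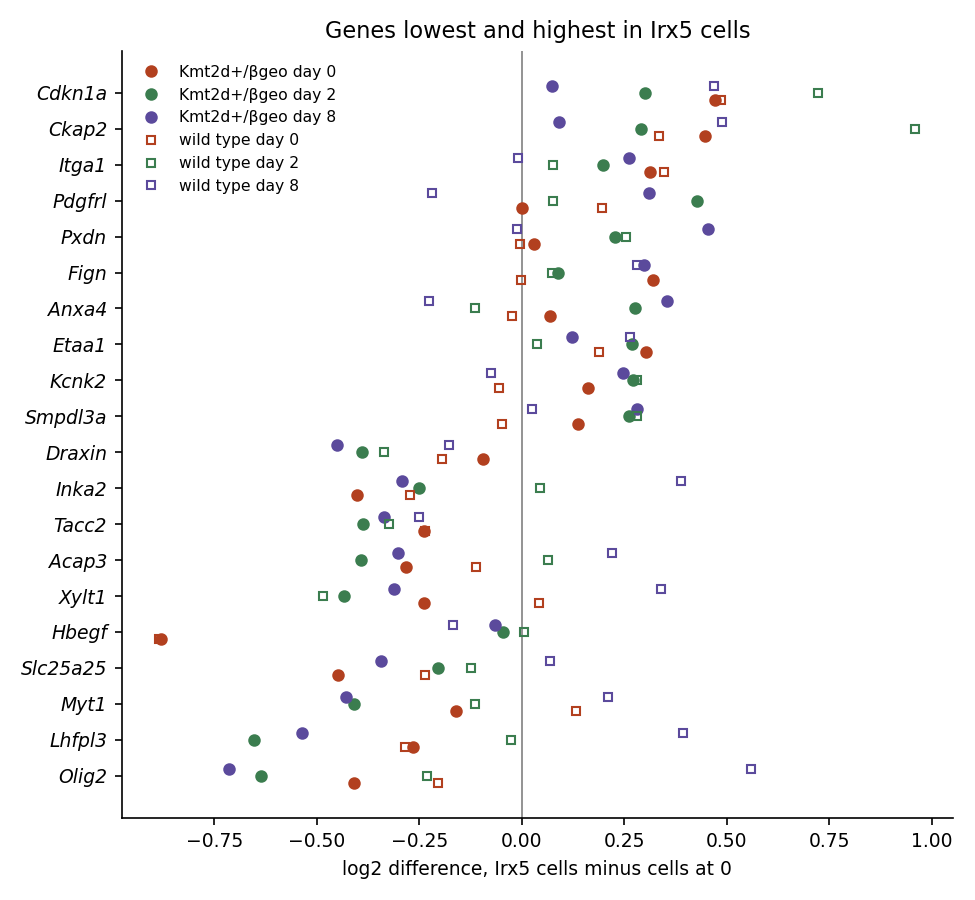
Log2 difference in mean normalised count, Irx5 cells minus cells at 0, for the 10 lowest and 10 highest genes with 1 sign in the Kmt2d+/βgeo libraries of days 0, 2 and 8 (filled circles), with the wild-type libraries of the same days (open squares). Each symbol is 1 library. Of these genes, Olig2 passed the test over the 3 Kmt2d+/βgeo libraries, and its open squares lie at -0.23, -0.20 and 0.56.

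At day 0 every measured gene of the S phase and G2 and M phase lists had a higher mean in Irx5 cells than in cells at 0, when the cultures still received growth factors. Of 18 measured G2 and M phase genes, 18 were above 0 at day 0, 14 at day 2 and 12 at day 8, with medians of 0.26, 0.09 and 0.03. Of 21 S phase genes, 21 were above 0 at day 0, 12 at day 2 and 3 at day 8, with medians of 0.20, 0.02 and -0.09. The median over all genes was -0.0031, -0.021 and -0.0083. None of the 39 genes passed the test over the 3 libraries in either direction. Top2a, the topoisomerase that untangles chromosomes before mitosis, is named because it had the highest ratio between the classes at day 2. It had a mean of 5.52 in Irx5 cells and 4.42 in cells at 0 at day 0. The means were 0.173 and 0.106 by day 2, then 0.0539 and 0.0690. After thinning, 51.2% of Irx5 cells and 30.5% of cells at 0 had a Top2a UMI at day 0, a difference of 20.7 points (17.6 to 23.9). Total UMIs rise as a cell proceeds to division, and the Irx5 share was higher in deeper cells. The means and log2 differences given here were weighted to the depth classes. With these weights, mean total UMIs at day 0 were 28408.6 in Irx5 cells and 28033.5 in cells at 0. The thinned shares were not weighted in this way. What depth adds within a depth class was not tested. Tacc3, a spindle protein, had differences of 0.27, 0.08 and 0.33. Its day 8 value rested on low means, 0.0679 in Irx5 cells and 0.0337 in cells at 0. Thinned, 1.12% and 1.00% of these cells had a Tacc3 UMI. Tyms, which makes thymidylate for DNA, had 0.35, -0.08 and 0.10, and Pold3, a DNA polymerase subunit, had 0.14, 0.04 and 0.18.

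No measured gene of the lists for position in the brain passed the test, but most of the listed genes were not in the matrix. Olig2 was counted in the oligodendrocyte list only. Of the hippocampal and cortical identity list 5 of 17 genes were measured and 0 were called. Nr2f2, a nuclear receptor of the caudal cortex and hippocampus, had differences of 0.29, 0.26 and 0.05, its relative Nr2f1 had 0.36, 0.15 and -0.02, and Pax6, of dorsal progenitors, had 0.33, 0.06 and 0.03. For diencephalon, midbrain, hindbrain and spinal cord 4 of 35 listed genes were measured, and none was called. Zic1 had 0.38, 0.12 and 0.09, and its relative Zic2 had 0.25, 0.10 and -0.07. Of 13 ventral telencephalic genes listed, Gad1 alone was measured, with a mean difference of -0.04. Of 9 other TALE homeodomain genes tested, none was called, the list's median was -0.0016, and Meis1 was the highest with 0.18, 0.15 and 0.24. Pknox1, a partner of such factors, had 0.15, 0.02 and 0.24. The neighbouring gene Crnde had 0.24, 0.28 and -0.01 (mean 0.17, SE 0.066, adjusted p = 0.481 in limma), and Rpgrip1l, a cilium gene of the same chromosome, had 0.00, 0.05 and -0.10.

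Of 11 astrocyte, 4 neuron and 6 progenitor genes tested, none was called. Of the astrocyte genes 6 were above 0 at day 0, 9 at day 2 and 6 at day 8, with medians of 0.01, 0.11 and 0.01. Sox9 and Gja1 had the largest mean differences of that list. Sox9, a gliogenic factor, had differences of 0.24, 0.12 and 0.08 and the gap junction gene Gja1 had 0.22, 0.11 and 0.03. Of the progenitor genes 4, 5 and 3 were above 0, and Hopx, of quiescent stem cells and astrocytes, had 0.13, 0.51 and 0.01. At day 2 its mean was 2.09 in Irx5 cells and 1.45 in cells at 0, and at day 8 it was 6.43 and 6.39. Of the neuron genes 2, 0 and 1 were above 0 on the 3 days. Map2, of dendrites, had differences of -0.08, -0.13 and -0.17, and Rbfox3, a splicing factor of mature neurons, had 0.01, -0.19 and -0.21. The summed normalised count of the 11 astrocyte genes was 39.8 in Irx5 cells and 39.5 in cells at 0 at day 0. On day 2 the sums were 278.2 and 247.5, followed by 142.0 and 140.6 on day 8.

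Markers of cells from outside the neural lineage could be read in part. Of the 14 fibroblast and pericyte genes 1 was in the matrix, Prrx1, a homeobox factor of mesenchyme that neural progenitors also express. It had a mean of 0.988 in Irx5 cells and 0.804 in cells at 0 at day 0. For days 2 and 8 the means were 0.750 against 0.648 and 1.06 against 0.921, and the 3 log2 differences were 0.27, 0.18 and 0.18 (adjusted p = 0.206 in limma). After thinning, the difference in the share of cells with a Prrx1 UMI was 5.06 points at day 0 (2.30 to 7.89), 3.28 points at day 2 (0.958 to 5.68) and -2.01 points at day 8 (-6.22 to 2.55). For endothelial cells, microglia and neural crest 0 of the listed genes were in the matrix, so a minor population of these cells would not be seen. Dynlrb2, the only measured gene of the ependymal and choroid plexus list, had a mean difference of 0.02. The part of other cell types in the results was not tested.

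No gene of the signalling lists passed the test. Of 14 WNT, 6 hedgehog, 10 BMP, 14 FGF and 6 Notch genes tested, 0 were called in either direction, and the medians were between -0.03 and 0.06. Ptch1, the hedgehog receptor, had a difference of 0.41 at day 0 and of -0.03 and 0.03 later. Smo, which carries the hedgehog signal into the cell, had 0.07, -0.01 and 0.15. The WNT receptor Fzd3 had 0.09, 0.14 and 0.11 and the WNT target regulator Tcf7l1 had 0.17, 0.05 and 0.11. Of the BMP effectors, Smad5 had -0.26, -0.13 and 0.08 and Smad1 had 0.05, -0.09 and -0.19. The receptor Notch3 had 0.09, 0.02 and 0.29, and the Notch coactivator Maml1 had -0.15, -0.04 and -0.15. The FGF feedback inhibitor Spry2 had -0.13, -0.07 and -0.16. Of the genes that part the labels most at day 0, which were chosen on these samples, Luzp2 had 0.05, 0.17 and 0.04 and Kcnd2 had -0.17, -0.15 and -0.16. The sialyltransferase gene St3gal6 had 0.04, 0.20 and 0.05, and 2210408F21Rik had -0.01, 0.18 and 0.28. Luzp2 was thus present in both classes, with means of 0.266 in Irx5 cells against 0.254 in cells at 0 on day 0, 1.61 against 1.43 on day 2, then 2.62 against 2.54. Kmt2d itself had differences of 0.01, -0.09 and -0.01.

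Within a single library few genes reached a fold of 1.5 between the classes, taken as the plain ratio of their means with no pseudocount, where no test is possible. At day 0, 8 genes were at least 1.5-fold higher (0.114% of 6992) and 7 lower (0.1%). At day 2 these were 8 (0.11% of 7304) and 10 (0.137%), and at day 8 they were 39 (0.524% of 7436) and 78 (1.05%). The larger counts of day 8 came with 540 Irx5 cells and the lowest depth, and with a minimum mean of 0.5 instead of 0.1 the total was 2, 2 and 1 on the 3 days. A gene could pass the minimum of 0.1 through the class in which it was higher, so these counts describe the libraries and no single ratio is given. With both means at 0.1 or above, 3 genes were higher and 4 lower at day 0, 7 and 5 at day 2, then 15 and 30 at day 8.

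The place of Irx5 cells among the cells of their library was then read from other genes. Each cell was given its 30 nearest neighbours by variable genes other than Irx5, after thinning. At day 0 the neighbours of Irx5 cells were Irx5 cells in 38.1% of cases and those of cells at 0 in 27.9%, a ratio of 1.37. At day 2 the shares were 36.7% and 31.2% (ratio 1.18), and at day 8 they were 21.3% and 22.0% (ratio 0.970). The depth classes of the neighbours alone would give ratios of 1.15, 1.05 and 1.01. Genes found in 2 to 60% of cells that took no part in finding neighbours numbered 3439, 3765 and 3948. Their median ratio was 1.08, 1.04 and 1.02, and 5.06%, 13.7% and 86.1% of them had a higher ratio than Irx5. The highest ratios over these genes were 3.94 for Ect2 at day 0, 4.81 for Dscaml1 at day 2 and 8.19 for Cacng4 at day 8. Without the S and G2M phase lists the day 0 ratio was 1.32, though cycle genes outside these lists could stay.

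Clusters of the same cells, 7 in each library, all held Irx5 cells. At day 0 the share was highest in cluster 1 at 50.7% (47.7 to 53.6), the cluster led by Top2a, Nusap1, Kif11 and Smc2, with a median of 32357 total UMIs. After thinning, 11.4% of its cells had an Irx5 UMI, against between 2.49% and 8.00% in the other 6. The lowest share was 16.2% (13.2 to 19.5), in cluster 5, led by Smoc1, Lhfpl3, Rap1gap and Draxin. At day 2 the lowest share was 16.7% (14.6 to 19.0) in cluster 1, led by Lhfpl3, Ets1, Myt1 and Draxin and with Olig2 in its leading 10 genes. The other 6 clusters of day 2 held between 29.8% and 46.8%, the highest in cluster 7, led by Hopx, Fabp7, Ldb2 and Ctsc. At day 8 the shares were between 13.8% and 24.6%, and the intervals of all 7 clusters overlapped. The lowest, cluster 7, was led by Lhfpl3 and Cacng4 and had 4 Irx5 cells of 29. Cluster 1 of day 0 held 1145 of the 4300 clustered cells of that day and 43.7% of their 1326 Irx5 cells. No other cluster on any day held more than 23.4% of the clustered Irx5 cells. That share was in cluster 2 of day 8, which held 427 of 2147 clustered cells.

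**Figure D5:**
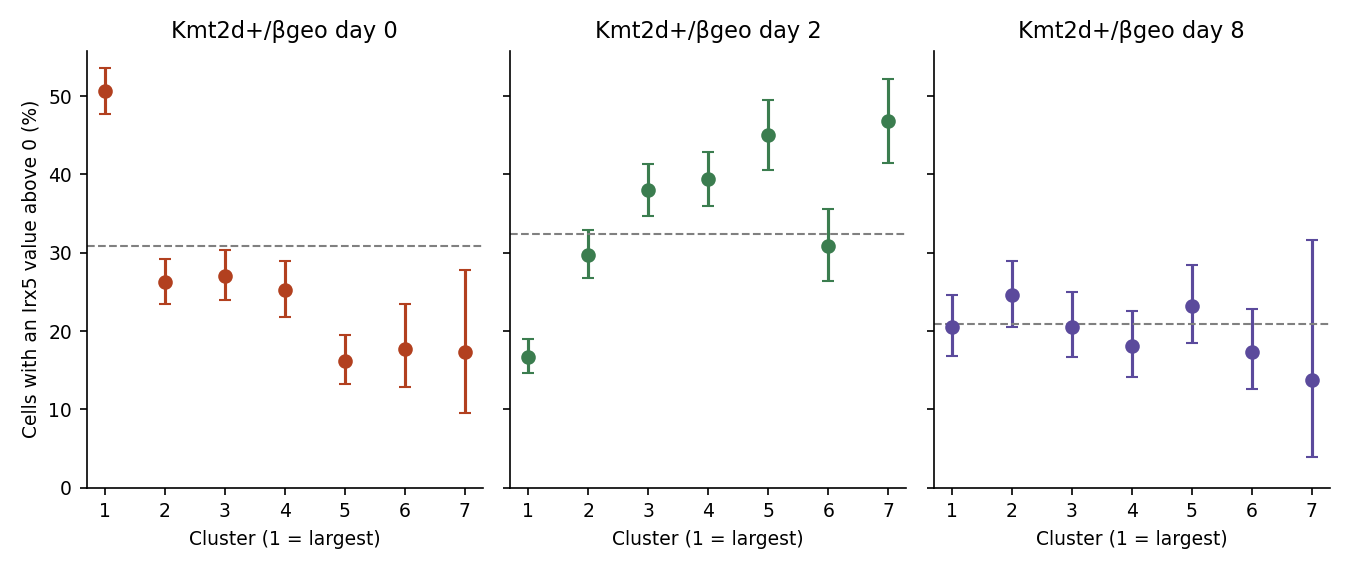
Share of cells with an Irx5 value above 0 (%) in each of 7 clusters of the Kmt2d+/βgeo libraries of days 0, 2 and 8, with exact 95% binomial intervals. The dashed line is the share over all clustered cells of the library. Cluster 1 stands highest at day 0 (50.7%) and lowest at day 2 (16.7%), and the 7 intervals of day 8 overlap; clusters were built separately in each library, so their numbers do not match between days.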

How the data were processed

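Cultured mouse hippocampal progenitors were sequenced as single cells with the 10x 3′ kit, with 1 library per genotype and day. The submitters' processing notes name alevin, Salmon 1.3.0, Seurat 3.2.2 and GRCm38. According to the study's methods the authors took spliced counts as expression, filtered out doublets, outlying cells and cells or genes with little signal, dropped mitochondrial genes, and divided counts by library size factors before taking logs. The result, deposited as log2 values, covers 9140 genes in 30408 cells. The deposited cell table gives total UMIs per cell as the authors' estimated count.

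Values were turned back to normalised counts, which summed to 8707.14 in every cell. The commonest value of a cell was taken as 1 UMI, and 86.8% of nonzero values were then within 0.01 of a whole UMI. Estimated UMIs were rounded to whole UMIs, 0.5 down, for thinning to 3000 per cell and for Poisson shares. Cells at 0 were weighted over 10 depth classes. Genes with a mean of at least 0.1 in either class of any library were tested with limma 3.58.1 in R 4.3.3 on log2(mean + 0.1), with library as a block and Benjamini-Hochberg adjustment, and Irx5 was left out. Log2 differences are on that scale, which shrinks differences of low genes, whereas folds and ratios within 1 library are plain ratios of the means, with no pseudocount. On simulated data for this comparison over 8011 genes, 98.0% of 100 genes changed 1.5-fold were recovered, and 1 of 7811 unchanged genes was called. The simulation gave a changed gene the same change on all 3 days, with a small noise set in advance. The 98.0% holds for that setting only and is not the power in the measured libraries. Neighbours and Leiden clusters used the 1000 most variable genes of every second row of the matrix and 30 components (scikit-learn 1.9.0, leidenalg 0.10.2, resolution 1). Shares have exact (Clopper-Pearson) and differences of shares Newcombe 95% intervals, which cover counting error only. The alternatives are listed in the closing section.

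The cells, the gene lists and the tests were chosen with earlier results of these data known. Named genes were Irx5, the 10 highest and 10 lowest with 1 sign in all 3 libraries, and list genes that were called or had the 2 largest differences of a list. The rule also named the 5 highest ratios of each library. Of these only Top2a, the highest of day 2 and a gene of the G2 and M phase list, is described, because most of those at days 0 and 8 passed the minimum mean through Irx5 cells alone. Bcan, Cnp and the leading genes of clusters, as well as Kmt2d, Ect2, Dscaml1, Cacng4, Gas6 and Ctsc, were named after their values were seen. No cell types were assigned.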

Additional observations from a re-analysis of the deposited data

Results flagged for a closer look

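The day 4 library labelled Kmt2d+/βgeo took no part in the comparisons. Its share of cells with an Irx5 value above 0 was 7.77% (6.76 to 8.89), against 6.07% (5.30 to 6.91) in the wild-type library of that day, a difference of 1.71 points (0.418 to 3.04). After thinning the shares were 1.26% and 1.05%, and the interval of the difference included 0 (-0.330 to 0.799). Its Irx5 level was thus far from those of the other libraries of its label.

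For 4 of the 70 genes of the naming rule, the difference between Irx5 cells and cells at 0 was above 0 in each of the 3 Kmt2d+/βgeo libraries and below 0 in each of the 3 wild-type libraries. Several of the named genes had been chosen for 1 sign in the Kmt2d+/βgeo libraries, and over all 8199 genes 100 (1.22%) had this pattern and 157 (1.91%) the opposite one. The mean difference was higher by 0.35 for Anxa4, by 0.25 for Meis1, by 0.44 for Hopx and by 0.25 for St3gal6, a gene of a list chosen on these samples, on the log2 scale. A limma test of this contrast of differences over 8199 genes gave an adjusted p of 0.858 for each of them, and 0 genes passed, with 470 at an unadjusted p under 0.05. Olig2 had a contrast of -0.63 (adjusted p = 0.858). Paired by day, a fit chosen after the data were seen, limma also passed 0 genes, with 524 at an unadjusted p under 0.05 and an adjusted p of 0.755 for each of these 5 genes. The wild-type libraries held between 149 and 395 Irx5 cells.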

How the results depend on the processing

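The share of Irx5 cells at days 0, 2 and 8 was 7.12%, 10.0% and 8.38% after thinning and 21.1%, 22.1% and 10.5% with at least 1 UMI. The ratio to the Poisson share was 0.913 and 0.933 after thinning at days 0 and 2. The depth ratio was 1.11, 1.05 and 1.06 by detected genes. The count of genes called higher, 0 at first, was 2 with thinned cells, 5 with wild-type libraries in their place, 3 with both genotypes and 1 with cells at 0.5 UMIs, a setting chosen after the data were seen; without 1 library it was between 0 and 46. The count called lower was 4 without depth weights, 12 with a minimum mean of 0.5, and 0 with at least 2 UMIs, with wild-type libraries and without the library block; without 1 library it was between 4 and 79. The main fit already pairs the classes within each library, as a block, and each group has 1 library, so replicate numbers pair nothing further. The Olig2 difference was between -0.91 and -0.27 under the alternatives with a Kmt2d+/βgeo library and 0.04 with wild-type libraries (adjusted p from 1.63e-09 to 1.00 in limma), and with both genotypes its call was lost (adjusted p = 0.435). Signs turned with wild-type libraries for Olig2 (0.0416), Lhfpl3 (0.0273), Acap3 (0.0579), Inka2 (0.0541), Anxa4 (-0.12), Meis1 (-0.0659), Nr2f2 (-0.0932), Zic1 (-0.14), Hopx (-0.23), Pknox1 (-0.0712), Gad1 (0.0383), Zic2 (-0.0693), 2210408F21Rik (-0.0868) and St3gal6 (-0.15). They also turned for Hopx (-0.0073) and St3gal6 (-0.0280) with both genotypes, Kcnk2 (-0.0033) and Dynlrb2 (-0.0820) with at least 2 UMIs, Ptch1 without day 0 (-0.0026, against 0.187 and 0.218 without day 8 and day 2) and Kcnd2 (0.0428), Pknox1 (-0.0118) and 2210408F21Rik (-0.0287) with thinned cells. With cells at 0.5 UMIs they turned for Rpgrip1l (0.0157), Dynlrb2 (-0.12) and Smad5 (0.0755). Without 1 library Rpgrip1l was between -0.0492 and 0.0293 (turned without day 8) and Dynlrb2 between -0.0277 and 0.0720 (turned without day 2). Genes past 1.5-fold at days 0 and 2, 15 and 18 at first, were 105 and 56 without depth weights. At days 0, 2 and 8 there were 1, 0 and 6 past a fold of 2, and 2, 2 and 1 past a fold of 1.5 with a minimum mean of 0.5. The neighbour ratio was 1.47 at day 0 without thinning and 1.13 at day 2 by Irx5 UMIs left after thinning, and depth classes alone, a setting chosen after the data were seen, gave 1.15 and 1.05. At resolution 2 the highest cluster share was 54.6% at day 0 and 33.3% at day 8, and the lowest at day 2 was 13.2%. Calls were also gained among 56 named genes followed through the alternatives. Of those not called at first, 21 were called without day 8, 4 without day 2 and 2 without day 0. With a minimum mean of 0.5 there were 5, without depth weights 3, with wild-type libraries 3, with both genotypes 2 and with cells at 0.5 UMIs 1. The cause of these changes was not tested. Depth limits the day 8 library most, and with 1 library per genotype and day no interval covers differences between cultures.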

Other observations

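Irx5 cells of the wild-type libraries numbered 395 at day 0, 206 at day 2 and 149 at day 8, and were compared with wild-type cells at 0 in the same way. By limma, 5 genes were higher at an adjusted p under 0.05 and 0 lower, with 272 and 250 at an unadjusted p under 0.05. Cdkn1a had log2 differences of 0.49, 0.72 and 0.47 on days 0, 2 and 8 (adjusted p = 7.87e-06). Its mean was 3.34 in Irx5 cells and 2.35 in cells at 0 at day 0. Top2a had 0.23, 1.31 and 1.12 (adjusted p = 0.00116) and Ckap2 had 0.33, 0.96 and 0.49 (adjusted p = 0.0165). The other two were Gas6, a secreted ligand of TAM receptors (mean 0.48), and Ctsc, a lysosomal protease (mean 0.42). Mean Top2a in wild-type cells at 0 was 5.23 at day 0 and 0.121 at day 2. In the Kmt2d+/βgeo libraries none of these 5 genes was called. There Cdkn1a and Ckap2 were above 0 on all 3 days, Top2a had 0.31, 0.41 and -0.13, Gas6 had -0.09, 0.01 and 0.21, and Ctsc had -0.02, 0.10 and -0.17.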
